A study of Mus musculus with 98 samples.

Results

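The 34 genes described here encode the machinery that stores neurotransmitter in synaptic vesicles, releases it and retrieves the vesicle membrane. They were taken as a named list, which was chosen with earlier results of these data known. Each was looked up by symbol in 6 tables of gene counts. All 34 were present among the 25239 genes of 2 culture tables and among the 55367 named genes of the 4 other tables. All 34 also passed the expression filter of every fit. The list holds 7 vesicle membrane or vesicle-bound proteins (Syn1, Syn2, Syp, Sv2a, Sv2b, Syngr1, Syngr3), 2 vesicular glutamate transporters (Slc17a7, Slc17a6), 6 SNAREs and SNARE-recycling factors (Snap25, Stx1a, Vamp1, Vamp2, Nsf, Napb), 7 calcium sensors and complexins (Syt1, Syt2, Syt7, Doc2a, Doc2b, Cplx1, Cplx2), 8 active zone, priming and Rab3 genes (Rims1, Rims2, Bsn, Pclo, Unc13a, Erc2, Rab3a, Rab3c) and 4 genes of vesicle endocytosis (Dnm1, Amph, Synj1, Sh3gl2).

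The study measured mouse RNA from cultured neurons and from hippocampus after a virus meant to raise ACSS2, which turns acetate into acetyl-CoA, and it holds 98 libraries in 22 groups. Cultured neurons came from the hippocampus of CD1 embryos. On day 5 they received a PhP.eB virus for 48 hours that carried either Acss2 (upACSS2) or no insert (vector), were washed on day 7, and then received the tau material labelled hAD-tau or PBS alone. Libraries were made on day 9 or day 21, with 3 in each of 8 resting groups and 3 in each of 4 day 21 groups labelled as stimulated, for which the labels do not name the stimulus. A separate culture series had no virus, with 3 PBS and 4 tau libraries on day 21. Male C57BL6 mice were used at 22 to 23 months (12 upACSS2 and 12 vector, whole hippocampus, 30 minutes after a remote context recall test) and at 10 months (6 upACSS2 and 5 vector, dorsal hippocampus, 30 minutes after fear conditioning, 2 weeks after injection). For the mice of 22 to 23 months the labels give injection at 21 to 22 months and 2 months after injection. Male PS19 mice, which carry mutant human tau under the Prnp promoter, were injected at 2.5 months and sampled 1 month or 6 months later. They were then 3.5 months or 8.5 to 9 months old. Sampling was 30 minutes after a 24-hour context recall test, with 5 mice in each of 4 groups. All mice received the virus behind the eye, so in every mouse group the vector mice were also infected and had also been through a memory test. Groups follow the sample titles. The treatment entry contradicts the title in several groups. The PS19 upACSS2 group at 1 month is labelled whole hippocampus while the other PS19 groups are labelled dorsal hippocampus, and there the tissue cannot be told apart from the virus. The labels do not say that culture libraries came from separate cultures, and p-values then measure the spread between these libraries, which may be technical.

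Neurotransmitter is pumped into vesicles by transporters such as the vesicular glutamate transporters, vesicles dock at the active zone through scaffold proteins such as Bassoon (Bsn), Piccolo (Pclo) and RIM (Rims1, Rims2), and Munc13 (Unc13a) prepares them for fusion. Fusion is driven by the SNARE proteins of the vesicle (Vamp1, Vamp2) and the plasma membrane (Snap25, Stx1a) when calcium binds a synaptotagmin, with complexins as clamps and helpers. In hippocampal excitatory neurons Slc17a7 (VGLUT1) is the main glutamate transporter, whereas Slc17a6 (VGLUT2) is known from thalamus and from immature neurons.

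Values are CPM, counts scaled to a common library size with TMM factors. Total counts per library ran from 5075099 in a 10-month mouse to 39985460 in a stimulated culture. Acss2 stood between 40.1 and 57.9 CPM in the vector cultures and between 1488 and 5462 CPM in the upACSS2 cultures. In mice the difference was small: 46.7 to 61.5 CPM against 40.0 to 53.7 in aged mice, and 49.9 to 59.3 against 42.3 to 48.8 at 10 months. In PS19 mice Acss2 ranged from 60.1 to 1465 CPM against 51.5 to 66.3 at 1 month and from 44.9 to 237 against 43.1 to 56.0 at 6 months. The summed level of 6 pan-neuronal markers ran from 5304 to 5825 CPM on day 9 and from 2044 to 3471 CPM on day 21 in the resting cultures, and that of 7 astrocyte markers from 1022 to 1420 CPM on day 9 and from 2160 to 17042 CPM on day 21. The spread between replicates was much larger on day 21 (biological coefficient of variation 0.189) than on day 9 (0.0420). The 3 resting day 21 libraries that stood apart in the genes described here were vector PBS replicates 2 and 3 and vector tau replicate 2: the mean log2 CPM over the 34 genes was 7.65, 7.50 and 7.67 in them and 7.82 to 8.33 in the other day 21 resting libraries. Their summed pan-neuronal markers were also the lowest of the 12 (2079, 2079 and 2044 CPM, against 2597 to 3471 CPM), and vector PBS replicate 3 held the highest astrocyte sum. The part of these markers was not tested. Counts, medians and leading genes of the comparisons that use these libraries are also given without them. The 3 libraries were picked by the mean of these same genes. Leaving them out therefore raises the resting day 21 vector level of these genes by construction.

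Promoter windows for 27 of the 34 genes were found in RefSeq (GRCm38.p6), 36 windows in all, each with 250 bases before and 50 after a gene start. Their median GC content was 61.8%, against 52.7% over 32851 windows. The 250 upstream bases of 5 genes are printed. The glutamate transporters Slc17a6 (chr7:51621580-51621829, plus strand) and Slc17a7 (chr7:45163671-45163920, plus strand) moved in opposite directions between day 9 and day 21. The SNARE Stx1a (chr5:135023232-135023481, plus strand) fell. Syn1 (chrX:20920919-20921168, minus strand) and Sh3gl2 (chr4:85205206-85205455, plus strand) are the members that hold the full cAMP response element. The printed bases of Slc17a6 and Slc17a7 hold no match, and the short form counted below for Slc17a6 lies in its other window (chr7:51624387-51624686). Capitals mark matches to the cAMP response element TGACGTCA or its short form TGACG, which the full element contains, and to TTCAGCACC, the left part of the element bound by the repressor REST.
Slc17a6: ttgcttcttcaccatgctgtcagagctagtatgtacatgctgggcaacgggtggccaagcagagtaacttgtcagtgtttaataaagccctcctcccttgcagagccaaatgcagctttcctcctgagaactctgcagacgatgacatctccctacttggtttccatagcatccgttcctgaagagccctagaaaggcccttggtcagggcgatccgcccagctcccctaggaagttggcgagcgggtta
Slc17a7: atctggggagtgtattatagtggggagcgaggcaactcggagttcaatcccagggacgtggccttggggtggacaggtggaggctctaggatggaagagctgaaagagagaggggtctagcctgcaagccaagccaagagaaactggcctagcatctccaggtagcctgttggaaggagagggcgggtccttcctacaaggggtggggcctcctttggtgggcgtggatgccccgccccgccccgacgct
Stx1a: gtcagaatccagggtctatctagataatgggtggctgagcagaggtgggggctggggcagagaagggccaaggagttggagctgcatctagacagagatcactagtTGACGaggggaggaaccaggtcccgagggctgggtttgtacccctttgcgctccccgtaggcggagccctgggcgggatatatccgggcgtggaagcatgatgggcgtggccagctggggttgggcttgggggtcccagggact
Syn1: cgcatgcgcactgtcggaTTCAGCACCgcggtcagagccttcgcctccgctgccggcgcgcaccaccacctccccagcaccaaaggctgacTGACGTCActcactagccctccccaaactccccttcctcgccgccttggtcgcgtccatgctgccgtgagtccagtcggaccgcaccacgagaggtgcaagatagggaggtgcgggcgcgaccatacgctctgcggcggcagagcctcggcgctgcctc
Sh3gl2: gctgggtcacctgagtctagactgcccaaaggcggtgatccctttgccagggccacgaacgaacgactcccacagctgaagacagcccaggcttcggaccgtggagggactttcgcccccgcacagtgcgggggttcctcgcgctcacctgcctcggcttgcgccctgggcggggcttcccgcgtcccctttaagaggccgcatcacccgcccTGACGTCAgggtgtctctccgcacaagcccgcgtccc
On both strands of the 300-base windows, TGACGTCA was found for 2 of the 27 genes (7.41%), Syn1 and Sh3gl2, and for 2.03% of 27025 genes in the table. The short form TGACG was found for 9 of 27 (33.3%) and for 23.0% of all genes. TTCAGCACC was found for 2 of 27 (7.41%), Syn1 and Unc13a, against 0.433% of all genes, and the right part GGACAGC for 1 of 27 (3.70%), Unc13a, against 7.59%. The AP-1 site TGANTCA was found for 2 of 27 (7.41%), Erc2 and Syt2, against 8.97%. These matches describe letters in a window and not binding.

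Between day 9 and day 21 of culture the release genes moved in both directions. Averaged over the 4 arms (vector or upACSS2, PBS or tau), 10 of the 34 genes rose and 15 fell (edgeR quasi-likelihood test, Benjamini-Hochberg adjusted over 14863 genes). Over all genes tested 76.4% were called, 40.6% higher and 35.8% lower. The median log2 fold change was -0.11 over the 34 genes and 0.04 over all genes, and without the 3 low vector libraries that of the 34 genes was 0.05, with 18 positive and 16 negative. The groups of 12 libraries did not overlap for 11 of the 34 genes, against 31.3% of all genes. By role, vesicle membrane genes gave 2 higher and 3 lower of 7, the transporters 1 higher and 1 lower of 2, SNARE genes 3 higher and 1 lower of 6, calcium sensors and complexins 3 higher and 3 lower of 7, active zone genes 0 higher and 5 lower of 8, and endocytosis genes 1 higher and 2 lower of 4. Between the same days all 7 astrocyte markers rose (median log2 fold change 1.62), as did 4 of 4 markers of oligodendrocyte precursors (3.59) and 5 of 5 of GABAergic neurons (1.21), while 1 of 6 pan-neuronal markers rose and 2 fell (-0.23). Of 5 markers of progenitors and immature neurons 2 rose and 2 fell, and their sum went from 987 to 1241 CPM on day 9 to 183 to 516 CPM on day 21, without overlap. In bulk RNA fewer cells of a type and less RNA per cell cannot be told apart, and the part of cell composition in these differences was not tested.

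Among the 34 genes the largest fall was in Slc17a6 (VGLUT2, chr7:51622006-51671119). It stood at 45.0, 54.9 and 68.7 CPM (lowest, median and highest of 12 libraries) on day 9 and at 5.55, 8.76 and 12.5 CPM on day 21. The highest day 21 library was far below the lowest day 9 library, and the log2 fold change was -2.67 ± 0.09 (SE, adjusted p = 3.69e-16), with arm values from -3.29 to -2.33. Slc17a7 (VGLUT1, chr7:45163949-45176142) moved the other way, from 800, 888 and 959 CPM on day 9 to 789, 1486 and 2085 CPM on day 21. Its log2 fold change was 0.69 ± 0.13 (adjusted p = 5.71e-05), and the groups overlapped because the lowest day 21 library lay below the lowest day 9 library. Per length of exon the Slc17a6 to Slc17a7 ratio, as a log2 value, was between -4.15 and -3.78 in the 4 day 9 groups and between -7.66 and -6.96 in the 4 resting day 21 groups (group means, n = 3 each).

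Among the SNAREs, Vamp1 rose and Stx1a fell. Vamp1 (synaptobrevin 1, chr6:125215551-125245964) stood at 14.4, 17.3 and 23.2 CPM on day 9 and at 48.3, 76.7 and 128 CPM on day 21. No day 21 library reached down to the day 9 range, and the log2 fold change was 2.14 ± 0.11 (adjusted p = 1.45e-13), between 1.94 and 2.30 in the 4 arms. Its paralog Vamp2, the main vesicle SNARE of the forebrain, had a median of 805 CPM on day 9 and 799 CPM on day 21 with a log2 fold change of -0.06 ± 0.08 (adjusted p = 0.523). Per length the Vamp1 to Vamp2 log2 ratio went from between -7.13 and -6.66 on day 9 to between -5.11 and -4.37 on day 21, so Vamp2 stayed the more abundant transcript. Stx1a (syntaxin 1A, chr5:135023482-135051100), the plasma membrane SNARE, went from 264, 282 and 296 CPM to 68.2, 105 and 136 CPM without overlap (log2 fold change -1.45 ± 0.07, adjusted p = 1.09e-13). Snap25, its partner in the plasma membrane, went from 637, 688 and 715 CPM to 754, 1278 and 1369 CPM, also without overlap (0.74 ± 0.09, adjusted p = 1.06e-07).

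**Figure D1:**
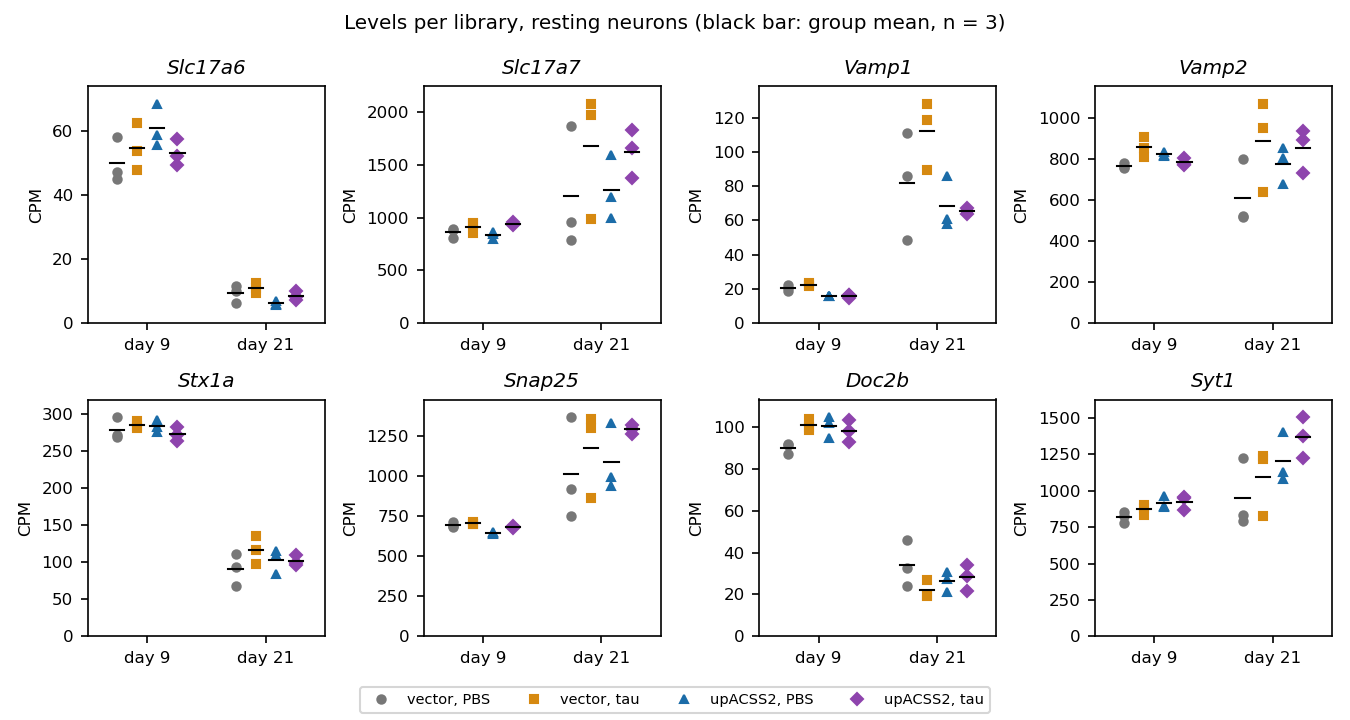
Level (CPM, linear axis from 0) of 8 of the genes in each resting library on day 9 and day 21, with 1 point per library, colour and shape for the 4 arms, and a bar at each group mean (n = 3). Slc17a6 fell from a median of 54.9 to 8.76 CPM and Vamp1 rose from 17.3 to 76.7 CPM, without overlap between the days.

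Of the calcium sensors, both Doc2 genes and Syt7 fell and Syt1 and Syt2 rose. Doc2b, a high-affinity calcium sensor of spontaneous release, fell from 87.0, 98.1 and 105 CPM to 19.4, 27.1 and 46.0 CPM (log2 fold change -1.83 ± 0.09, adjusted p = 2.07e-13), and Doc2a fell from 41.9, 45.7 and 51.4 CPM to 12.6, 19.0 and 31.0 CPM (-1.26 ± 0.07, adjusted p = 1.59e-12). Neither overlapped between days. The exons of Doc2a share 1103 of 2803 bases (39.4%) with Ino80e on the other strand, and the strand setting of the counting is not given in the sources used here, so reads of these genes may not be told apart. Syt7, the slow synaptotagmin of asynchronous release, fell from a median of 213 to 122 CPM (-0.81 ± 0.09, adjusted p = 5.36e-08), whereas Syt1, the fast sensor, rose from 885 to 1219 CPM (0.38 ± 0.08, adjusted p = 0.000135). Per length the Syt7 to Syt1 log2 ratio went from between -1.99 and -1.76 to between -3.27 and -2.93. Syt2, the fast sensor of hindbrain and some interneurons, rose (1.12 ± 0.13, adjusted p = 1.03e-07) but stayed low, with a median of 2.23 CPM on day 9 and 4.65 CPM on day 21. Cplx1 rose (0.25) and Cplx2 did not pass the test (-0.18 ± 0.11, adjusted p = 0.116).

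No active zone gene passed the test on the higher side with all libraries, but without the 3 low vector libraries Rab3a did (0.12, adjusted p = 0.00868). Erc2, a scaffold of the active zone, fell from a median of 437 to 187 CPM without overlap (log2 fold change -1.19 ± 0.09, adjusted p = 7.49e-11). Unc13a fell from 453 to 279 CPM without overlap (-0.87 ± 0.12, adjusted p = 1.45e-06). Pclo fell from 310 to 196 CPM (-0.79 ± 0.13, adjusted p = 1.33e-05), Rims1 by 0.41 and Rab3c by 0.26 on the log2 scale. Bsn (-0.16 ± 0.16), Rims2 (0.02 ± 0.04) and Rab3a (0.02 ± 0.07) did not pass the test. The Pclo to Bsn log2 ratio per length went from between -1.18 and -1.09 to between -1.83 and -1.67. In the endocytosis group Amph (amphiphysin) fell from a median of 517 to 251 CPM without overlap (-1.02 ± 0.05, adjusted p = 5.34e-13), Dnm1 (dynamin 1, which cuts vesicles from the membrane) rose from 471 to 925 CPM (0.82 ± 0.11, adjusted p = 7.72e-07), Synj1 fell by 0.28 and Sh3gl2 did not pass the test (-0.06 ± 0.09). Of the vesicle membrane genes Sv2b (0.48) and Syp (0.22) rose, and Syngr3 (-0.52), Syn2 (-0.35) and Syn1 (-0.33) fell. The Syngr3 to Syngr1 log2 ratio per length turned from between 0.24 and 0.37 on day 9 to between -0.78 and -0.17 on day 21.

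**Figure D2:**
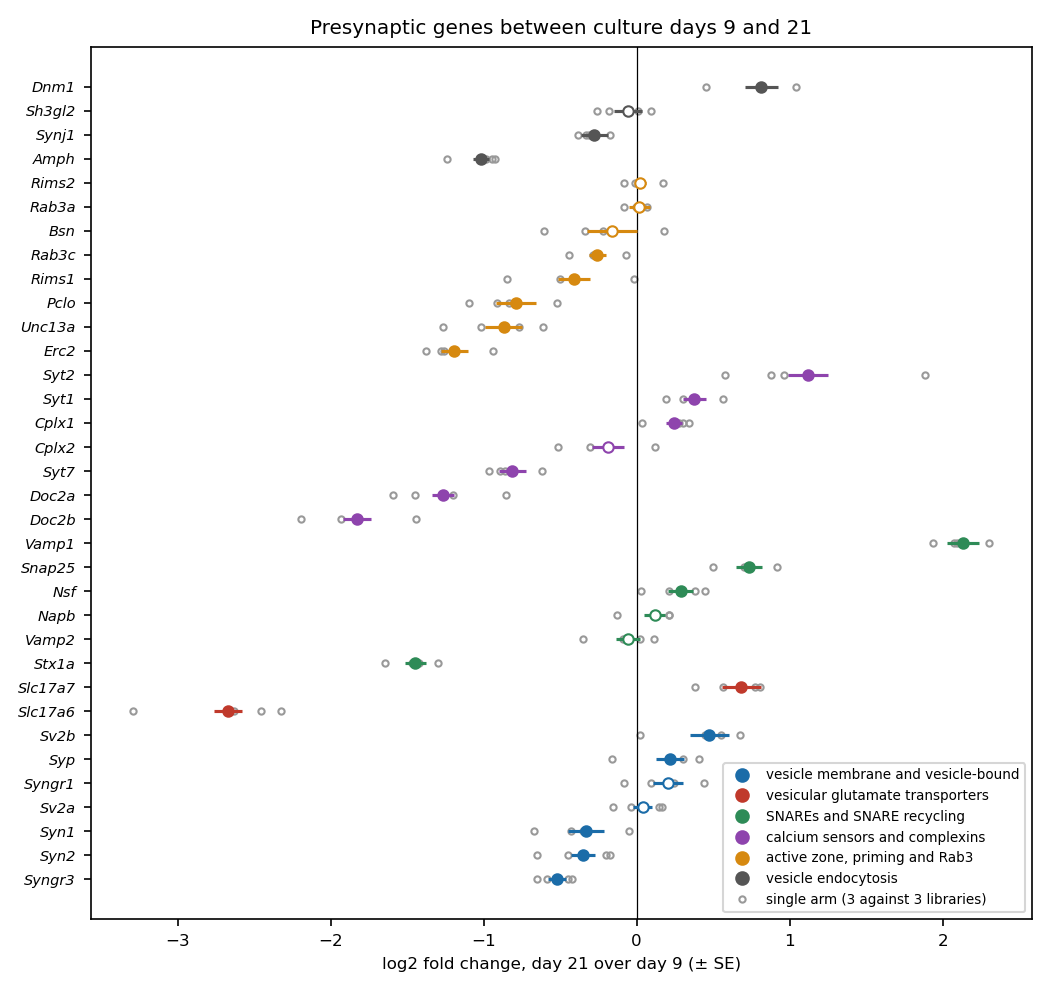
Log2 fold change of each of the 34 genes between day 9 and day 21, averaged over the 4 arms (large points, coloured by role, with bars of 1 SE; filled where the adjusted p was under 0.05), and in each single arm (small grey circles, differences of mean log2 CPM). Points run from -2.67 for Slc17a6 to 2.14 for Vamp1, and no filled point of the active zone group lies above 0.

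Without the 3 low vector libraries 28 of the 34 genes were called, 14 higher and 14 lower: Syn1 was no longer called, and Syngr1, Sv2a, Napb and Rab3a were. Of the other genes of the pathway, 35 of 36 listed were tested and 7 rose and 20 fell, among them Syt4 (-1.69 ± 0.06), Unc13c (-1.55 ± 0.11) and Syt12 (1.52 ± 0.13). The call of Syp was lost in 20 of 30 other settings. The calls of the other 24 genes were kept in all 30, except that of Syn1 without those 3 libraries.

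On day 9, upACSS2 against vector in PBS changed 5 of the 34 genes, by small amounts: 3 were higher and 2 lower, against 10.2% of 14022 genes called (4.90% higher and 5.35% lower). The median log2 fold change was 0.04, and that of all genes was -0.00. Syn1, the synapsin that tethers vesicles to one another, stood at 597, 598 and 603 CPM with upACSS2 and at 509, 502 and 506 CPM with vector. These groups were tight and apart, with a log2 fold change of 0.25 ± 0.04 (adjusted p = 0.00223). Vamp1 stood at 14.8, 14.8 and 15.1 CPM against 19.2, 21.1 and 17.6 CPM, all 3 upACSS2 libraries below all vector libraries (-0.37 ± 0.08, adjusted p = 0.00533). Snap25 was lower (612, 608 and 619 against 680, 659 and 659 CPM, log2 fold change -0.12 ± 0.03, adjusted p = 0.0184). Syt1 was higher (843, 851 and 911 against 811, 747 and 786 CPM, 0.15 ± 0.04, adjusted p = 0.0256), and so was Synj1, the phosphatase that uncoats retrieved vesicles (455, 441 and 472 against 411, 412 and 431 CPM, 0.13 ± 0.04, adjusted p = 0.0433). The groups did not overlap for 17 of the 34 genes, against 30.7% of all genes. Markers of oligodendrocyte precursors were lower in the same comparison, 3 of 4 past the test (median -0.63), although their sums overlapped (241 to 267 against 253 to 297 CPM). Higher with upACSS2 without overlap were the sums of pan-neuronal (5647 to 5825 against 5304 to 5324 CPM), GABAergic (540 to 582 against 471 to 538) and progenitor and immature neuron markers (1141 to 1228 against 987 to 1070). Their part was not tested. When the 12 day 21 libraries, with their larger spread, entered the same fit, none of the 34 genes was called. Of the other pathway genes 3 were higher and 1 lower of 35, the largest being Dnm3 (0.26 ± 0.05).

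In the tau arm of day 9, upACSS2 against vector changed 2 of the 34 genes, against 0.692% of all genes (0.328% lower). Vamp1 was again lower, at 15.3, 15.3 and 13.6 CPM against 21.3, 20.4 and 22.2 CPM, with no overlap (log2 fold change -0.53 ± 0.08, adjusted p = 0.00138). Dnm1 was higher, at 477, 489 and 488 CPM against 447, 426 and 436 CPM (0.15 ± 0.03, adjusted p = 0.0416). Groups did not overlap for 10 of the 34 genes, against 17% of all genes. None of the 35 other pathway genes was called. GABAergic marker sums were higher with upACSS2 without overlap (563 to 602 against 508 to 536 CPM), and their part was not tested.

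Tau against PBS on day 9 raised 3 of the 34 genes in the vector cultures, against 4.28% of all genes (2.01% higher, 2.27% lower), and 28 of the 34 fold changes were positive with a median of 0.06. Syt7 stood at 214, 241 and 204 CPM with tau and at 176, 193 and 195 CPM with PBS, a log2 fold change of 0.23 ± 0.05 (adjusted p = 0.0149). Vamp2 stood at 813, 858 and 772 CPM against 723, 722 and 741 CPM (0.16 ± 0.04, adjusted p = 0.0172), and Synj1 at 481, 468 and 439 CPM against 411, 412 and 431 CPM (0.15 ± 0.04, adjusted p = 0.0379). In each of these 3 genes every tau library was above every PBS library, as it was, in one direction or the other, for 13 of the 34 genes (20.8% of all genes). Marker sums moved as well, without overlap: pan-neuronal 5440 to 5682 CPM with tau against 5304 to 5324, astrocyte 1228 to 1413 against 1096 to 1182, and oligodendrocyte precursor 157 to 199 against 253 to 297. Sums of activity genes (61.2 to 76.2 against 96.1 to 112) and oligodendrocyte markers (38.7 to 39.7 against 41.8 to 45.8) were also lower with tau without overlap. Their part was not tested. In the upACSS2 cultures tau changed none of the 34 genes by edgeR (8 at an unadjusted p under 0.05, 1 by DESeq2, against 0.349% of all genes called, 0.214% higher), and 17 fold changes were positive and 17 negative. The lowest p was that of Slc17a7 (0.17 ± 0.04, adjusted p = 0.0924). Marker sums also moved in the upACSS2 cultures without overlap. Astrocyte (1270 to 1420 CPM with tau against 1022 to 1136) and oligodendrocyte sums (38.7 to 40.0 against 36.2 to 37.4) were higher with tau. Oligodendrocyte precursor sums were lower (185 to 223 against 241 to 267). Their part was not tested. Synpr, another vesicle membrane gene, was higher with tau in both the vector (0.25 ± 0.05) and the upACSS2 cultures (0.30 ± 0.05). The test of the difference between those tau responses called 1 of the 34 genes, against 0.663% of all genes: Vamp2, with an interaction of -0.23 ± 0.05 on the log2 scale (adjusted p = 0.0436). With upACSS2, Vamp2 stood at 777, 775 and 791 CPM in PBS and at 738, 765 and 727 CPM with tau. This call was lost in 11 of 17 other settings. The tau and the virus comparisons share libraries: the vector PBS libraries enter both.

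Vamp1 was the one gene of the 34 with a negative fold change for upACSS2 in all 6 culture comparisons, which share no library, with log2 fold changes of -0.37 and -0.53 on day 9, -0.27 and -0.76 in resting day 21 cultures and -0.41 and -0.74 in stimulated ones (PBS and tau in each). The 2 day 9 values passed the test and the 4 day 21 values did not (adjusted p from 0.0569 to 0.61). Without the 3 low vector libraries the resting day 21 values of Vamp1 were -0.70 and -0.90, and neither passed the test. On day 21 in tau, Vamp1 stood at 67.1, 70.6 and 69.8 CPM with upACSS2 and at 134, 93.6 and 124 CPM with vector, with no overlap. In the stimulated tau cultures it stood at 69.9, 75 and 90.0 CPM against 135, 119 and 139 CPM, again with no overlap. The groups overlapped in both day 21 comparisons in PBS. In all 6 comparisons the GABAergic marker sums were higher with upACSS2 without overlap. In both day 21 comparisons in tau so were the pan-neuronal and astrocyte marker sums. The part of these markers was not tested. In all 6 comparisons 4 genes were on the higher side (Syngr3, Syt1, Rab3c and Amph). These genes were picked out after their values were seen. The 6 comparisons may not be independent, since the labels do not say whether resting and stimulated libraries came from separate cultures. Without the 3 low vector libraries 2 genes (Rab3c and Amph) were on the higher side and 2 (Vamp1 and Syngr1) on the lower side throughout. Over the 13854 genes tested in all 6, 6.95% were on the lower side and 6.44% on the higher side in every one.

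On day 21 at rest, upACSS2 against vector changed none of the 34 genes, in PBS (3 at an unadjusted p under 0.05, against 0.0137% of all genes called) or in tau (3, against 0.0273%), and DESeq2 called none. The fold changes were positive for 30 of 34 in PBS (median 0.22) and 24 of 34 in tau (median 0.16). These counts depended on the 3 low vector libraries, which were picked because these same genes were low in them. Leaving them out must raise the vector level, so the counts without them cannot decide the direction. Without them 5 of 34 were positive in PBS (median -0.15), where the 1 vector library left is assumed to vary like the other groups. In tau 16 of 34 were positive (median -0.03), with none called. In PBS the sums of oligodendrocyte precursor markers (1359 to 1650 CPM against 929 to 1311) and GABAergic markers (1329 to 1493 against 1023 to 1306) were higher with upACSS2 without overlap, and all 7 astrocyte markers had negative fold changes. In tau all 7 astrocyte markers had positive ones, and their sums did not overlap (4359 to 9179 against 2160 to 4290). Also higher with upACSS2 in tau without overlap were the sums of pan-neuronal (3212 to 3295 against 2044 to 2773) and GABAergic markers (1157 to 1605 against 941 to 1059). Their part was not tested. In PBS the lowest p belonged to Slc17a6 (-0.61 ± 0.23, adjusted p = 0.238), Doc2a (-0.48 ± 0.19, adjusted p = 0.252) and Amph (0.36). Without the 3 low libraries these were -0.02 for Slc17a6, -0.80 for Doc2a (adjusted p = 0.178) and 0.16 for Amph. In tau Doc2a (-0.57 ± 0.19, adjusted p = 0.323) and Vamp1 (-0.76 ± 0.25, adjusted p = 0.331) were first, and without those libraries they were -0.69 and -0.90 (adjusted p = 0.156 and 0.0945). Groups did not overlap for 0 of the 34 genes in PBS (17.7% of all genes) and for 5 in tau (21.6%). Syn1 stood at 543, 244 and 326 CPM in the vector PBS libraries, at 437, 468 and 673 CPM with upACSS2 in PBS and at 588, 277 and 552 CPM in the vector tau libraries. The low values are those of the 3 libraries that stood apart.

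Tau against PBS on resting day 21 also changed none of the 34 genes, in vector (5 at an unadjusted p under 0.05; 0% of all genes called) or in upACSS2 cultures (1; 0%), with 0 by DESeq2. Of the 34 fold changes, 33 were positive in vector (median 0.31) and 32 in upACSS2 cultures (median 0.20). The 34 genes were read in the same few libraries, so these counts are not independent observations. Without the 3 low libraries the count in vector was 25 (median 0.08). Syn2 had the lowest p in vector (0.55, adjusted p = 0.53), and the exception in direction was Doc2b (-0.63 ± 0.24), which without the 3 low libraries was at -0.99 (adjusted p = 0.782). No gene of the 34 was free of overlap in vector (9.68% of all genes) and 3 were in upACSS2 cultures (17.4%). Astrocyte markers went the other way in vector, with 0 of 7 positive and a median of -0.96. In upACSS2 cultures 6 of 7 astrocyte markers were positive (median 0.46), and the sums of oligodendrocyte precursor markers (1095 to 1121 CPM with tau, 1359 to 1650 with PBS) and of progenitor and immature neuron markers (248 to 300 against 309 to 516) were lower with tau without overlap. Their part was not tested. Tau by virus gave 0 of the 34 genes (0 at an unadjusted p under 0.05).

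In the stimulated day 21 cultures with tau against PBS, 29 of the 34 fold changes were positive in vector (median 0.13) and 32 in upACSS2 cultures (median 0.30). In vector 1 gene passed the test, against 3.02% of all genes (1.76% lower), and it was lower: Doc2b stood at 21.9, 20.7 and 14.4 CPM with tau and at 46.1, 31.4 and 39.4 CPM with PBS, without overlap (log2 fold change -1.03 ± 0.23, adjusted p = 0.0416). Slc17a6 was next, at 11.5, 11.5 and 16.6 CPM against 6.47, 7.27 and 8.09 CPM (0.86 ± 0.22, adjusted p = 0.0539). With the replicate number as a block, which the libraries of this comparison followed, both were called. Groups did not overlap for 10 of the 34 genes (26.7% of all genes). Summed astrocyte markers were 3110, 3089 and 1321 CPM with tau and 7517, 4593 and 7543 CPM with PBS here. GABAergic sums were also lower with tau without overlap (949 to 1001 against 1161 to 1524 CPM). The part of these markers was not tested. The Doc2b call was lost in 5 of 11 other settings.

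In the stimulated upACSS2 cultures tau changed none of the 34 genes by edgeR (0.208% of all genes called), but 17 had an unadjusted p under 0.05, groups did not overlap for 17 (23.7% of all genes), and DESeq2 called 9. Sv2b stood at 770, 664 and 761 CPM with tau and at 396, 455 and 544 CPM with PBS (log2 fold change 0.65 ± 0.13, adjusted p = 0.0713). Erc2 stood at 285, 245 and 240 CPM against 166, 183 and 197 CPM (0.50, adjusted p = 0.0713), and Sh3gl2 at 344, 318 and 377 CPM against 204, 240 and 259 CPM (0.56 ± 0.13, adjusted p = 0.094). In all 3 genes the tau libraries lay above the PBS libraries. Astrocyte marker sums overlapped between these groups (5334 to 5738 CPM with tau, 3604 to 7677 CPM with PBS). Sums of progenitor and immature neuron markers were lower with tau without overlap (270 to 359 against 382 to 467 CPM), and their part was not tested. The interaction of virus and tau called none (7 at an unadjusted p under 0.05; 0% of all genes called; lowest for Doc2b, 1.05 ± 0.32, adjusted p = 0.237).

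In all 4 day 21 tau comparisons with virus, resting and stimulated, 26 of the 34 genes had positive fold changes and 0 had negative ones throughout. These comparisons share no library, but they may not be independent. The labels do not say whether resting and stimulated libraries came from separate cultures. Over the 14579 genes tested in all 4, 17.6% were positive and 16.2% negative in every one. The 8 that were not positive throughout were Sv2a, Stx1a, Vamp1, Syt2, Doc2b, Cplx1, Rims2 and Unc13a. Without the 3 low resting vector libraries 21 genes were positive and 0 negative throughout.

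**Figure D3:**
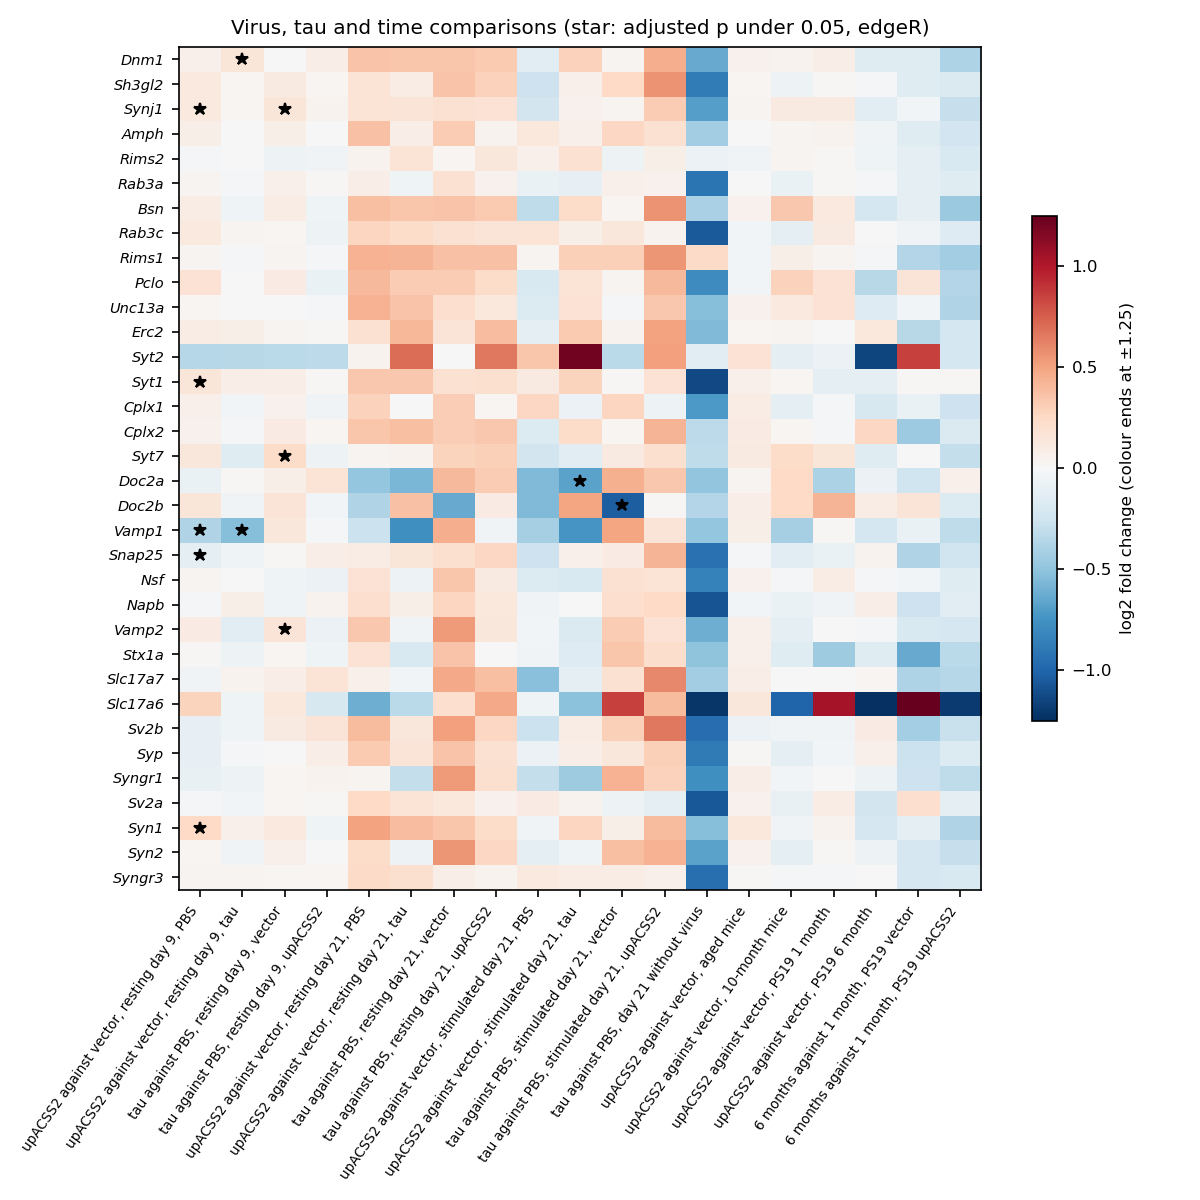
Log2 fold change of each of the 34 genes (rows, by role) in the 19 comparisons of 2 groups (columns), as colour from blue (lower) to red (higher) that saturates at the ends of its scale, with a star where the adjusted p was under 0.05. Columns of tau in day 21 cultures with virus are mostly positive, whereas the column of tau without virus has 33 of 34 negative. All libraries enter these values, the 3 low resting vector libraries too.

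In the stimulated cultures upACSS2 against vector changed none of the 34 genes in PBS by edgeR (6 at an unadjusted p under 0.05, 2 by DESeq2, against 0.208% of all genes called), with 25 of 34 fold changes negative (median -0.12) and no overlap for 6 genes (22.7% of all genes). In tau it changed 1, against 0.937% of all genes (0.395% higher, 0.542% lower). Doc2a stood at 16.5, 17.5 and 14.7 CPM with upACSS2 and at 27.4, 21.2 and 28.6 CPM with vector (log2 fold change -0.67 ± 0.13, adjusted p = 0.0368). These libraries did not overlap, as for 5 of the 34 genes (24.7% of all genes). Ino80e, which shares sequence with Doc2a, had a log2 fold change of -0.23 ± 0.09 (adjusted p = 0.183). Doc2a had values of -0.56 in stimulated PBS cultures (adjusted p = 0.0996) and of -0.48 and -0.57 at rest on day 21, and of -0.08 and 0.01 on day 9. The call in stimulated tau cultures was lost in 6 of 11 other settings. Syt2 was at 10.5, 6.03 and 9.68 CPM against 3.68, 2.80 and 4.95 CPM (1.20, adjusted p = 0.0573), and it passed with the replicate number as a block. Marker sums were higher with upACSS2 in these tau cultures without overlap: pan-neuronal (3652 to 4234 against 3072 to 3297 CPM), GABAergic (1169 to 1606 against 949 to 1001) and astrocyte (5334 to 5738 against 1321 to 3110). In stimulated PBS cultures so were GABAergic sums (1548 to 1869 against 1161 to 1524 CPM). Their part was not tested.

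Stimulated against resting day 21 cultures, averaged over the 4 arms, differed in 4 of the 34 genes, all higher, against 25.3% of all genes (12.6% higher and 12.6% lower). These libraries are in separate tables, so stimulation and table cannot be told apart. All 7 activity genes rose (median log2 fold change 4.85). Scaled within each set, pan-neuronal sums ran from 3072 to 4234 CPM stimulated and from 2044 to 3471 CPM at rest. Astrocyte sums ran from 1321 to 7677 CPM stimulated and from 2160 to 17042 CPM at rest. Both overlapped, and their part was not tested. Pclo stood at 100, 203 and 284 CPM (lowest, median and highest of 12) at rest and at 233, 293 and 412 CPM after stimulation, with a log2 fold change of 0.71 ± 0.14 (adjusted p = 0.00106). Rab3c stood at 248, 342 and 397 CPM against 321, 397 and 509 CPM (0.27 ± 0.08, adjusted p = 0.0144). Bsn stood at 214, 521 and 694 CPM against 484, 662 and 871 CPM (0.53 ± 0.17, adjusted p = 0.0275), and Syt7 at 85.0, 126 and 168 CPM against 123, 147 and 203 CPM (0.28 ± 0.10, adjusted p = 0.0361). All 4 overlapped, and so did every other of the 34 genes, against 1.80% of all genes that did not. By arm, the difference in mean log2 CPM was 1.09 for Pclo and 1.04 for Bsn in vector PBS, and 0.45 and 0.24 in upACSS2 PBS.

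This comparison rested in part on the 3 low resting vector libraries, whose removal raises the resting level of these genes by construction. Without them Pclo stayed higher (log2 fold change 0.50, adjusted p = 0.0052), while Bsn (0.26, adjusted p = 0.124), Rab3c (0.17, adjusted p = 0.135) and Syt7 (0.12, adjusted p = 0.180) were no longer called. Rab3a (-0.21, adjusted p = 0.0132), Doc2a (-0.26, adjusted p = 0.0234) and Stx1a (-0.20, adjusted p = 0.0440) were then called lower. The median over the 34 genes went from 0.10, with 28 positive, to -0.05, with 11 positive. Syn1 and Sh3gl2, whose promoters hold the full cAMP response element, had log2 fold changes of 0.16 ± 0.13 and 0.04 ± 0.10 in the comparison of all 24 libraries and were not called. Of the other pathway genes 6 of 36 rose and 0 fell, the largest being Syt4 (0.72 ± 0.07), a synaptotagmin known as an activity-induced gene.

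**Figure D4:**
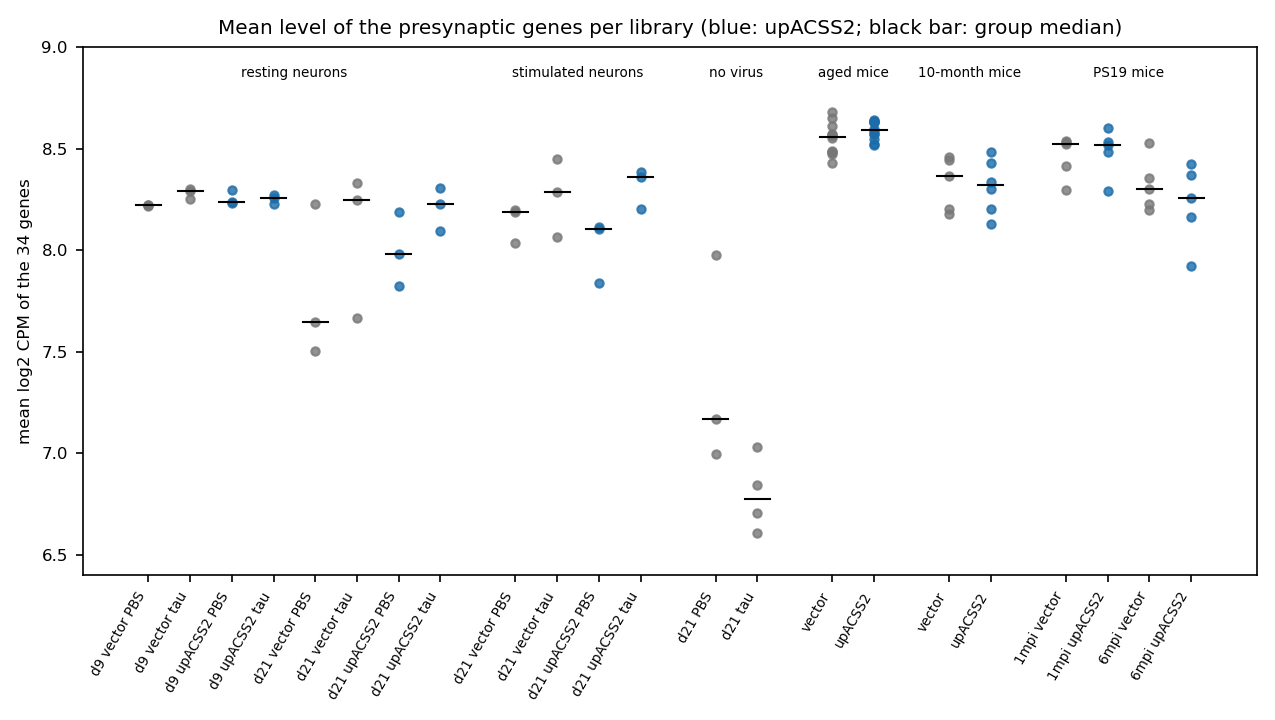
Mean log2 CPM over the 34 genes in each library, by group and table, with 1 point per library, blue for upACSS2, and a bar at each group median. The 3 resting day 21 vector libraries at 7.65, 7.50 and 7.67 lie below the other resting libraries, and the cultures without virus range from 6.61 to 7.98.

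In the cultures without virus, 33 of the 34 fold changes of tau against PBS were negative (median -0.65, all genes 0.01), the exception being Rims1 (0.24 ± 0.34). None passed the test by edgeR (20 at an unadjusted p under 0.05; 0% of 16341 genes called), and DESeq2 called 3. Sv2a, a vesicle glycoprotein, stood at 335, 286 and 594 CPM with PBS and at 168, 210, 231 and 169 CPM with tau (log2 fold change -1.06 ± 0.26, adjusted p = 0.306). Syt1 stood at 677, 591 and 1202 CPM against 274, 375, 512 and 349 CPM (-1.13), and Slc17a6 at 9.11, 7.46 and 6.91 CPM against 4.28, 3.51, 3.96 and 1.63 CPM (-1.21). In all 3 genes every tau library was below every PBS library, as for 14 of the 34 genes (16.7% of all genes). PBS replicate 3 stood apart: its mean log2 CPM over the 34 genes was 7.98, against 7.17 and 7.00 in the other PBS libraries and 6.61 to 7.03 with tau. Its astrocyte markers summed to 1129 CPM against 4658 to 9153 CPM in the other libraries, and its oligodendrocyte precursor markers to 90.7 CPM against 1702 and 2027 CPM in the other PBS libraries. Without that library 30 of the 34 fold changes were negative, with a median of -0.27. With tau 7 of 7 astrocyte markers had positive fold changes (median 0.85) and 5 of 6 pan-neuronal markers negative ones (-0.66). GABAergic sums were lower with tau (465 to 971 against 997 to 2140 CPM) and sums of activity genes higher (523 to 769 against 227 to 339 CPM), both without overlap, and their part was not tested. The difference between the tau response with and without virus was not tested, since the tables are separate.

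In mice none of the 34 genes passed the test for upACSS2 against vector in any of the 4 comparisons. In aged mice 25 of 34 fold changes were positive with a median of 0.05 (1 at an unadjusted p under 0.05, 0% of 15157 genes called, 0 by DESeq2). Syn1 stood at 462, 528 and 552 CPM with upACSS2 and at 412, 465 and 545 CPM with vector (lowest, median and highest of 12), an overlapping difference of 0.13 ± 0.04 (adjusted p = 0.832). Replicates 1 to 3 of both groups stood apart from replicates 4 to 12 in endothelial and mural markers (173 to 235 against 65.7 to 146 CPM). Within replicates 1 to 3 Syn1 was at -0.03 and the median of the 34 genes at 0.00, within replicates 4 to 12 they were at 0.19 and 0.05, and no gene was called in either. At 10 months 14 were positive and 20 negative with a median of -0.02 (2 at an unadjusted p under 0.05, 0% of 13629 genes called), and Bsn had the lowest p (0.34 ± 0.13, adjusted p = 0.537). In PS19 mice the median was 0.01 at 1 month (0 at an unadjusted p under 0.05, 0% of 15850 genes called; Stx1a lowest, -0.45, adjusted p = 0.964) and -0.06 at 6 months (2, 0%; Syt2 lowest, -1.15, adjusted p = 0.264). Each of these rested on 1 vector mouse: without replicate 4 at 1 month Stx1a was at -0.04, and without replicate 3 at 6 months Syt2 was at -0.27. Groups did not overlap for 0 of the 34 genes in each of the 4 comparisons, against 0%, 0.814%, 0.820% and 2.50% of all genes. The DESeq2 counts were also 0 in the 3 comparisons after the aged mice.

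Between 1 and 6 months after injection of PS19 mice, 28 of 34 fold changes were negative in vector mice (median -0.14, 9 at an unadjusted p under 0.05) and 32 in upACSS2 mice (median -0.24, 10). None passed the test in either, against 7.46% (2.87% lower) and 0.0442% of all genes. Rims1, which tethers vesicles to the active zone, stood at 241, 215, 247, 205 and 209 CPM at 1 month and at 176, 211, 158, 145 and 174 CPM at 6 months in vector mice (log2 fold change -0.37 ± 0.12, adjusted p = 0.0687). With DESeq2, or with the vector groups alone in the fit, Rims1 was called. In upACSS2 mice it stood at 247, 247, 257, 217 and 178 CPM and at 213, 153, 160, 136 and 187 CPM (-0.43, adjusted p = 0.183). Most later values were below most earlier ones, and the groups overlapped in both. Next in vector mice were Stx1a (-0.63 ± 0.23, adjusted p = 0.0918) and Snap25 (-0.37 ± 0.14, adjusted p = 0.0983). Without vector replicate 4 at 1 month, which was high in Stx1a, that gene was at -0.25 (adjusted p = 0.275). Groups did not overlap for 1 of the 34 genes in vector mice (9.82% of all genes) and 2 in upACSS2 mice (3.15%). Of the 36 other pathway genes Ppfia3 (-0.46 ± 0.11, adjusted p = 0.0181) and Tprgl (-0.28 ± 0.08, adjusted p = 0.0434) fell in vector mice. The summed astrocyte markers were 1397 to 3314 CPM at 1 month and 2126 to 6140 CPM at 6 months in vector mice. In upACSS2 mice choroid plexus markers summed to 84.4 to 1370 CPM at 1 month and to 126 to 5954 CPM at 6 months, with all 4 fold changes positive. Their part was not tested. Virus by time called none (2 at an unadjusted p under 0.05; 0% of all genes called). At 1 month tissue label and virus cannot be told apart, which touches the time comparison in upACSS2 mice too. The mice sampled at 6 months were also older (8.5 to 9 against 3.5 months), so time after injection and age cannot be told apart.

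Slc17a6, the glutamate transporter known from thalamus, was high in single mice. Slc17a6 stood at 133 CPM in 1 vector mouse at 10 months (replicate 2), at 108 CPM in 1 upACSS2 PS19 mouse at 1 month (replicate 4) and at 122 and 54.8 CPM in 2 vector PS19 mice at 6 months (replicates 4 and 3). The other PS19 mice stood between 3.50 and 27.3 CPM. The summed level of 5 thalamic markers was 157 CPM in that 10-month mouse and 38.0 to 61.9 CPM in the others of its set, and 247, 193 and 61.7 CPM in those 3 PS19 mice, against 33.9 to 73.0 CPM in the other PS19 mice, a range that holds the last of the 3. Vamp1 (252 CPM) and Syt2 (67.7 CPM) were also high in that 10-month mouse. The aged mice ranged from 15.6 to 74.5 CPM for Slc17a6. The fold change of Slc17a6 was -1.0 ± 0.60 at 10 months, 1.04 ± 0.84 and -1.60 ± 0.83 in PS19 mice at 1 and 6 months, and none passed the test.

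**Figure D5:**
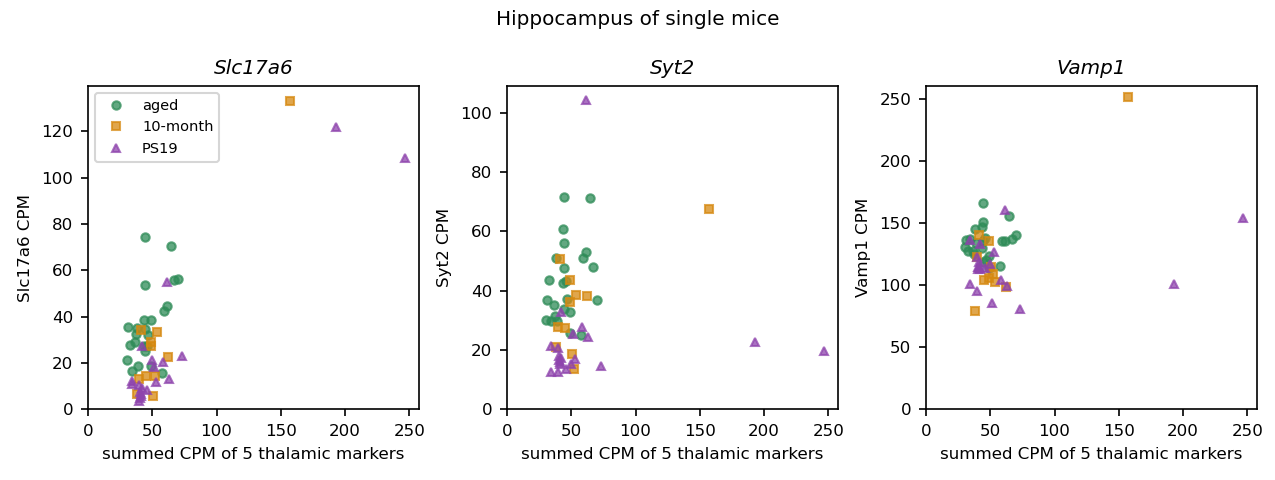
Level of Slc17a6, Syt2 and Vamp1 (CPM, vertical axes) against the summed CPM of 5 thalamic markers (horizontal axes), with 1 point per mouse and a colour and shape for each of the 3 sets. The mice at 133, 122 and 108 CPM of Slc17a6 are those with the 3 largest marker sums, 157, 193 and 247 CPM.

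Per length of exon (mean CPM per kilobase), Cplx2 (354.5), Syp (230.8) and Cplx1 (212.2) led the 34 genes in day 9 vector PBS cultures, and Rims2 (4.98), Vamp1 (1.99) and Syt2 (0.344) were last. In day 21 vector PBS cultures Cplx2 (258.0), Slc17a7 (223.5) and Cplx1 (220.2) led, and Rims2 (4.71), Slc17a6 (1.73) and Syt2 (0.537) were last. In aged vector mice Snap25 (378.4) led before Cplx2 (293.3) and Syp (274.2), with Slc17a6 (6.38) and Syt2 (5.25) among the lowest. Snap25 was in place 14 of 34 on day 9 and in place 1 in aged vector mice. The Doc2a to Doc2b log2 ratio per length was between -0.57 and -0.34 on day 9 and between -3.65 and -1.86 in the mouse groups, and the Slc17a6 to Slc17a7 ratio lay between -6.92 and -5.32 in the mouse groups. Tables were normalized separately and differ in strain, tissue and annotation, so these levels are set side by side with no test.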

How the data were processed

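For 98 libraries the authors deposited raw counts, in 6 tables keyed by gene symbol, and every library column matched a sample by name. Trizol and column extraction and an NEB library kit are given per the labels. STAR, featureCounts, HTSeq, DESeq2 and mm10 are named per the submitters' processing notes, without versions or roles, and the strand setting is not given in the sources used here. In the cultures without virus an unnamed row took 6.13% to 8.74% of counts and was kept out. None of 242 pairs of libraries within groups was identical, and the lowest chi-square per gene was 2.32.

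The test was that of edgeR 4.0.16, run in R 4.3.3 (quasi-likelihood F test, TMM scaling, default filter by group, Benjamini-Hochberg adjustment over all genes tested, threshold 0.05, two-sided). There were 9 fits and 25 comparisons, with separate fits for day 9 and day 21. Log2 CPM used a prior count of 2. Overlap was judged on CPM per library. Level ratios between genes were divided by exon length (GENCODE, GRCm38). The procedure was tested on simulated data. Alternatives were the replicate number as a block, DESeq2 1.42.0, RLE scaling, all genes without a filter, all 24 resting libraries or only the groups compared in the fit, limma 3.58.1 with group weights, each library left out, and in aged mice replicates 1 to 3 and 4 to 12 taken apart. After seeing the data, the 3 lowest day 21 vector libraries were also left out together.

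Same-numbered libraries deviated together (each correlation over 0.1) in stimulated upACSS2 against vector with tau (0.111 to 0.359), stimulated tau against PBS in vector (0.123 to 0.326) and tau without virus (0.220 to 0.394). The pairing comes from the numbers in the titles, and it did not hold in the other comparisons of a pair of groups. It was not checked by correlation between resting and stimulated libraries or between day 9 and day 21. In upACSS2 PBS, oligodendrocyte marker sums by replicate were 1249, 189 and 773 CPM at rest and 1656, 174 and 749 CPM stimulated. In vector PBS they were 355, 834 and 585 against 294, 804 and 463 CPM. In vector tau they were 263, 890 and 352 against 389, 632 and 178 CPM. In upACSS2 tau they were 507, 640 and 649 against 479, 771 and 594 CPM. Whether same-numbered libraries shared a culture was not tested, and the main fit did not pair them. Genes past the threshold are named, at most the 4 highest and 4 lowest with full statistics where more than 8 passed, otherwise up to 3 with the lowest p, and paralogs side by side. The members and gene lists were chosen with earlier results of these data known.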

Additional observations from a re-analysis of the deposited data

Results flagged for a closer look

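Within mouse groups of 4 to 10, 60 checks of single mice against the rest of their group by Dixon's test at the 95% level gave 8 flags, where chance gives about 1 in 20 groups, or 3. Vamp1 stood at 252 CPM in 10-month vector replicate 2, against 98.3 to 136 CPM in the others. Slc17a6 stood at 108 CPM in PS19 upACSS2 replicate 4 at 1 month, against 4.98 to 20.2 CPM. Doc2a stood at 25.8 CPM in PS19 vector replicate 4 at 1 month (7.40 to 12.3 CPM in the others) and at 20.3 CPM in PS19 vector replicate 3 at 6 months (6.70 to 10.3 CPM). Stx1a stood at 218 CPM in PS19 vector replicate 4 at 1 month (79.4 to 92.6 CPM) and at 90.9 CPM in PS19 upACSS2 replicate 3 at 1 month (76.4 to 80.0 CPM). Syngr1 stood low, at 396 CPM, in PS19 upACSS2 replicate 5 at 1 month (479 to 510 CPM). Syt2 stood at 105 CPM in PS19 vector replicate 3 at 6 months (12.5 to 24.3 CPM), a mouse whose astrocyte markers summed to 6140 CPM. Thalamic markers summed to 247 CPM in the mouse high in Slc17a6 and to 157 CPM in the mouse high in Vamp1, and their part was not tested.

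The tau response of Vamp2 on day 9 differed between vector and upACSS2 cultures by -0.23 on the log2 scale, by the interaction test in edgeR. This call was not stable: it was lost in 11 of 17 other settings, among them 10 of 12 fits with a single library left out.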

How the results depend on the processing

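Counts of the 34 genes called depended on the setting mainly on day 9 and in the stimulated cultures, and the causes were not tested. For upACSS2 against vector on day 9 in PBS the count was 5, and it was 10 without a filter, 11 with only the groups compared, 0 with all 24 resting libraries in the fit and 3 to 5 with single libraries left out. In tau it was 2, and 4 without a filter, 1 with only the groups compared, 0 with all 24 and 1 to 2 with libraries left out. For tau on day 9 it was 3 in vector, and 5, 0 and 0 under those settings and 0 to 8 with libraries left out (8 without vector tau replicate 3, 0 without vector tau replicate 2 or vector PBS replicate 1). In upACSS2 it was 0, and 2 without a filter, 2 with only the groups compared and 1 by DESeq2. The day 9 interaction gave 1, and 5 without a filter, 0 with all 24, 2 by DESeq2 and 0 to 3 with libraries left out. On resting day 21 upACSS2 gave 0, and 3 in PBS and 2 in tau with all 24 libraries.

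Stimulated cultures gave 0 for upACSS2 in PBS (2 by DESeq2), 1 in tau (4 by DESeq2, 3 without a filter, 0 with only the groups compared, 0 to 2 with libraries left out), 1 for tau in vector (7, 2, 0 and 0 to 7, the 7 without vector tau replicate 2) and 0 for tau in upACSS2 (9, 2 and 1 by the first 3). Stimulated against resting gave 4, and 2 to 9 with libraries left out (9 without resting vector PBS replicate 1, 2 without resting vector PBS replicate 2, stimulated upACSS2 PBS replicate 3 or stimulated vector tau replicate 3). Day 21 against day 9 gave 25, and 24 to 27 with libraries left out. Tau without virus gave 0, and 3 by DESeq2. The PS19 time comparison in vector gave 0, and 1 by DESeq2, 1 with only the groups compared and 0 to 2 with libraries left out (2 without 6-month vector replicate 2). The mean log2 CPM of the 34 genes on day 9 in vector PBS was 8.23 with RLE size factors and 8.22 with TMM.

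With the replicate number as a block the count was 1 for upACSS2 in tau on day 9, 1 for tau in upACSS2 on day 9, 3 for the day 9 interaction, 1 for stimulated upACSS2 in PBS, 2 in tau, 2 for stimulated tau in vector and 9 in upACSS2. In the other comparisons the block left the count within 1.5 times. Over single named genes 1605 of 1740 values kept direction and side of the threshold, 105 fell below it and 28 passed it. These values cover 93 results, of which 42 were called, so many of those kept are genes that stayed uncalled. Calls outside the day comparison varied. Dnm1 on day 9 in tau was lost in 9 of 12 settings and Syt7 after stimulation in 14 of 30. Vamp1 was lost in 1 of 12 in each day 9 virus comparison. The sign turned for Syn1 in aged mice with replicates 1 to 3 only (-0.030), a set of libraries in both groups that stood apart, and for Doc2a in PS19 mice at 1 month without vector replicate 4 (-0.52 to 0.017 with single mice left out). The replicate spread on day 21, and 5075099 counts in the shallowest 10-month library, limit what could be detected.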
